A study of Mus musculus with 6 samples.

Results

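The genes described are the 4 Elav-like RNA-binding proteins and 6 proteins that share or compete for their binding sites: Elavl1, Elavl2, Elavl3, Elavl4, Khsrp, Hnrnpd, Zfp36, Tia1, Tial1 and Pabpc1. They were taken as every probe set of the array that carries exactly 1 gene symbol, that symbol being one of the 10. This gave 37 of the 45037 probe sets other than controls, for 10 of 18193 named genes. No probe set with several symbols named a member.

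The transgenic group is described as overexpressing HuD and comprised 3 arrays from 2 mice, mouse 1 with 1 array and mouse 2 with 2 arrays. The control group had the same layout, with 3 arrays from 2 mice. All arrays measured total RNA of hippocampal cells labelled DGCs, an abbreviation of dentate granule cells in work on HuD mice. Strain, age, sex, the promoter of the transgene and the alleles of the controls are not given in the labels, and the 1 treatment they name, preservation, is common to all 6 arrays. Array numbers within a mouse are names only. The titles carry a tag, re-LCM, that no label explains, on 2 transgenic arrays (mouse 1, and mouse 2 array 1) and 1 control array (mouse 1). They number the arrays of control mouse 2 as controls 1 and 2, so that they may come from different animals. The labels do not say how the mice were bred, so the mice are treated as separate animals on the descriptions alone.

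HuD, the product of Elavl4, binds AU-rich elements (AREs) in the untranslated ends of mRNAs and keeps such messages from being degraded. HuB (Elavl2), HuC (Elavl3) and HuD are neuronal, whereas HuR (Elavl1) is made in nearly all cells. The same elements are bound by proteins that act in other ways: KSRP (Khsrp) and tristetraprolin (Zfp36) hasten decay, AUF1 (Hnrnpd) mostly does so too, TIA-1 (Tia1) and TIAR (Tial1) hold back translation, and the poly(A)-binding protein PABPC1 (Pabpc1) coats the tail that HuD can also contact.

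Values are linear intensities as deposited, scaled by the authors to a common trimmed mean on every array. Differences are log2 of transgenic over control between 2 mice per group, with arrays of a mouse averaged first. Values under an intensity of 10.1, the 25th percentile of all values, were set to it. Probe sets were tested with limma if their mean log2 level over the 6 arrays exceeded the median of all probe sets, and p-values were adjusted over all 22518 tested. The filter kept 32 of the 37 member probe sets, covering 9 of the 10 genes; the single Zfp36 probe set did not pass. An intensity depends on the probes as well as on the mRNA, so levels are compared between arrays within a probe set and not between probe sets. In captured cells, fewer cells of a type and less RNA per cell cannot be told apart.

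The capture held granule cell RNA in both groups. All 6 granule cell markers passed the filter, among them the desmosomal gene Dsp at 6366 to 7845 on the transgenic arrays and 7009 to 9391 on the control arrays. The calcium-binding protein gene Calb1 read 6907 to 7444 on the transgenic arrays and 6736 to 7033 on the control arrays. RNA of other cells was present as well: 6 of 8 oligodendrocyte, 6 of 8 microglia, 5 of 6 astrocyte and 5 of 5 interneuron markers passed, and Mbp, a myelin gene, read 3727 to 5297 on the transgenic arrays and 3010 to 7661 on the control arrays.

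No member differed past the threshold. With limma, 0 of 22518 probe sets were called (0%), so the members' count of 0 of 32 equals the background, and the smallest adjusted p of all was 0.993. At an unadjusted p under 0.05 there were 995 probe sets (4.42%) and 1 of the 32 of the members (3.13%), the brightest Elavl2 probe set. The 3 transgenic arrays all lay above the 3 control arrays for 1 member probe set (3.13%), against 3.83% of all probe sets tested. They all lay below for 3 (9.38%), against 4.32% of all. Of the 32 probe sets 11 had a higher and 21 a lower transgenic mean (median difference -0.15), while all tested probe sets had 11126 higher and 11392 lower (median -0.0036). Probe sets of 1 gene share its mRNA and are not independent of each other. Without control mouse 1 the members split into 12 higher and 20 lower, with a median of -0.08. Without transgenic mouse 1 they split into 15 higher and 17 lower, with a median of -0.02. With the tag of the titles as a term, fitted on the 6 arrays as separate samples, the split was 15 higher and 17 lower and the median -0.07. The 6 arrays as separate samples without the tag already gave 13 higher and 19 lower, with a median of -0.11. Neither of these 2 fits takes the mouse as the replicate.

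Elavl4, the gene of HuD itself, had 3 probe sets, and all 3 had a lower mean in the transgenic mice without passing the test. The brightest, 1428741_at, read 79.4 (mouse 1), 93.3 and 60.1 (mouse 2) on the transgenic arrays, against 122 (mouse 1), 92.8 and 63.7 (mouse 2) on the control arrays. The array of control mouse 1 stood highest, and the other 5 arrays of both groups overlapped. Its difference was -0.33 (SE 0.27, 95% interval -1.03 to 0.37, limma adjusted p = 0.993, n = 2 mice per group), which as a ratio is 0.80 with an interval of 0.49 to 1.29.

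The second Elavl4 probe set, 1450258_a_at, read 58.0 on transgenic mouse 1 and 72.0 and 71.9 on transgenic mouse 2, against 95.1 on control mouse 1 and 72.7 and 40.6 on control mouse 2. The transgenic values lay inside the range that the control arrays spanned. The dimmest, 1452894_at, read 35.8 on transgenic mouse 1 and 72.0 and 42.2 on transgenic mouse 2, against 104 on control mouse 1 and 43.7 and 62.8 on control mouse 2. Control mouse 1 was again the highest array, and transgenic mouse 1 the lowest. The differences were -0.15 (95% interval -0.99 to 0.68) and -0.73 (-1.79 to 0.33). The upper ends of the 3 intervals correspond to transgenic-over-control ratios of 1.29, 1.60 and 1.26, so only a ratio above 1.60 lies outside all 3. All 3 probe sets were dim, at 35.8 to 122, where the median of all values was 34.6. How far background lowers the ratios at such readings was not tested, and the intervals do not cover it. The labels give neither the species nor the end sequence of the transgene, and the probe sequences were not used here, so whether transgenic HuD RNA is among what they read was not tested.

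Across the 6 arrays the 3 Elavl4 probe sets moved alike to differing degrees, with Pearson's r of 0.71 between the brightest and the second, 0.61 between the brightest and the dimmest, and 0.35 between the other two. These correlations are descriptions over 6 arrays of 4 mice. The spread within a mouse was wide: for 1428741_at the 2 arrays of transgenic mouse 2 lay 0.63 apart on the log2 scale, and those of control mouse 2 lay 0.54 apart. Both gaps exceed the difference of 0.33 between the groups in size, although that difference averages several arrays and the gaps do not.

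Elavl2, which encodes HuB, had the largest difference among the member probe sets that passed the filter. Its brightest probe set, 1421883_at, read 200 on transgenic mouse 1 and 270.3 and 188 on transgenic mouse 2, against 500.0 on control mouse 1 and 351 and 230.2 on control mouse 2. The groups overlapped, since 1 array of transgenic mouse 2 exceeded 1 array of control mouse 2. The mean log2 level was 7.73 ± 0.12 in transgenic and 8.56 ± 0.58 in control mice (SD, n = 2), a difference of -0.83 (SE 0.31, 95% interval -1.64 to -0.015). This corresponds to a ratio of 0.56. It had the lowest p of the members but did not pass (limma adjusted p = 0.993). Without control mouse 1 it was -0.42, and without control mouse 2 it was -1.24.

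The remaining Elavl2 probe sets had lower transgenic means too. Pearson's r of 1421882_a_at with the brightest over the 6 arrays was 0.84. For 1421882_a_at the transgenic arrays read 127 (mouse 1), 176 and 151 (mouse 2), against 298 (mouse 1), 154 and 162 (mouse 2) on the control arrays. Only control mouse 1 lay apart, and without it the difference of -0.59 (SE 0.36) shrank to -0.14. For 1421881_a_at, with a difference of -0.14 (SE 0.32), the highest array was a transgenic one at 107 and the lowest a control one at 44.7. Without control mouse 1 that difference was 0.18.

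The dim probe set 1454454_at was the 1 Elavl2 probe set whose groups did not overlap. It read 45.9 on transgenic mouse 1 and 35.0 and 28.0 on transgenic mouse 2, against 58.5 on control mouse 1 and 62.1 and 47.5 on control mouse 2. All transgenic arrays lay below all control arrays, by a small margin between 45.9 and 47.5. The difference was -0.57 (SE 0.24, 95% interval -1.20 to 0.056, limma adjusted p = 0.993), and it ran from -0.85 to -0.30 when single mice or arrays were left out. The remaining probe set, 1433052_at, was under the floor on 4 of 6 arrays and did not pass the filter; its highest reading was 37.0, on a control array.

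The tag in the titles was set beside these differences, with each array counted on its own. In the control group the tag and the mouse cannot be told apart, since the tagged array is that of mouse 1 and the untagged arrays are those of mouse 2. Among the tagged arrays (2 transgenic, 1 control) the difference of 1421883_at was -1.10, and among the untagged arrays (1 transgenic, 2 control) it was -0.60. For 1454454_at the values were -0.55 and -0.96. For the brightest Elavl4 probe set they were -0.50 and -0.36. The second Elavl4 probe set changed sign between them, at -0.56 among tagged and 0.40 among untagged arrays, and the dimmest gave -1.03 and -0.31. Elavl2 1421882_a_at gave -0.997 among tagged and -0.07 among untagged arrays, and 1421881_a_at changed sign, at -0.25 and 0.03. Among the competing proteins Khsrp 1428174_x_at gave -1.28 among tagged and 0.12 among untagged arrays, and Tial1 1455676_x_at -0.92 and 0.65. The sign also changed for other probe sets of these proteins, among them Pabpc1 1453840_at (-0.37 and 0.57) and Tia1 1416812_at (-0.14 and 0.45). Hnrnpd 1457568_at changed the other way, at 0.20 and -0.10, while others kept their sign.

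**Figure D1:**
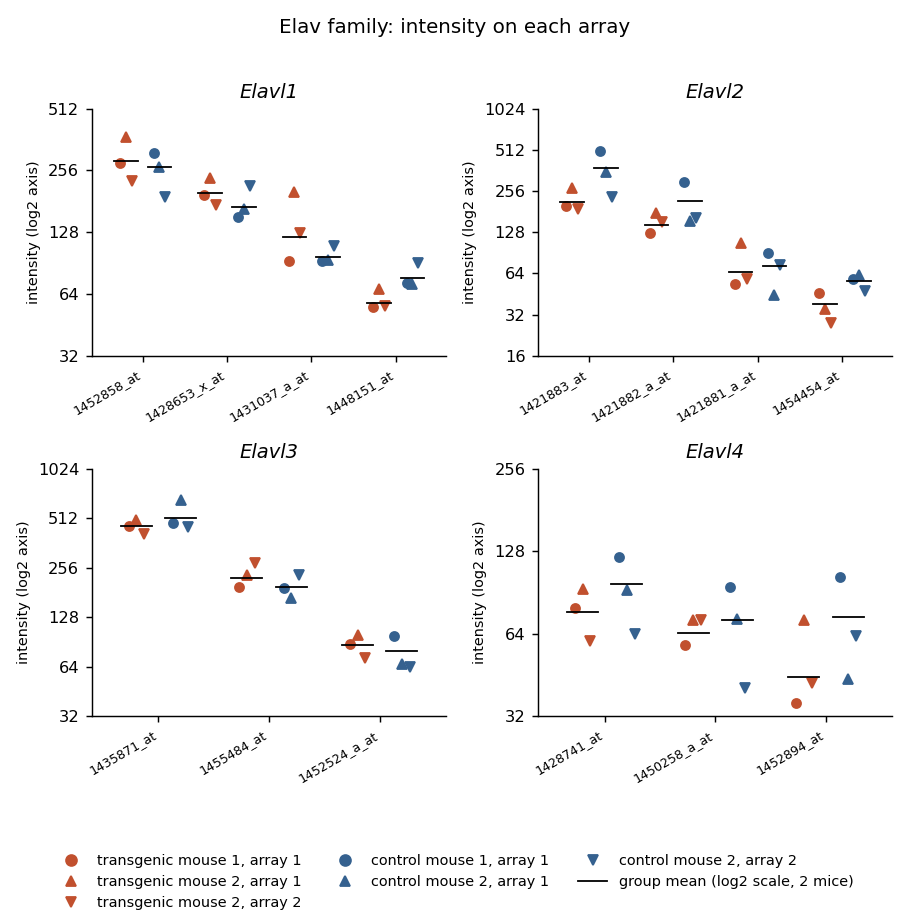
Intensities of the 14 Elav family probe sets that passed the filter (log2 axis, 1 panel per gene), with transgenic arrays in orange on the left and control arrays in blue on the right of each probe set; the shape marks the mouse and array, and black lines are group means of 2 mice on the log2 scale. Control mouse 1 (blue circle) is the highest array for all 3 Elavl4 probe sets and for the 2 brightest of Elavl2.

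Control mouse 1 was the highest of the 6 arrays for 5 of the 14 Elav family probe sets, namely all 3 of Elavl4 and the 2 brightest of Elavl2. That array was the highest for 14.5% of all probe sets tested. Transgenic mouse 2 array 1 was the highest for another 5 of the 14, against 19.2% of all. Transgenic mouse 1 was the lowest array for 10 of the 32 member probe sets, 7 of them of the competing proteins, against 17.4% of all. Most markers of other cells were lower in the transgenic group as well, and none passed the test. All 6 oligodendrocyte, 6 microglia and 5 astrocyte markers that passed the filter had a lower transgenic mean, with median differences of -0.73, -0.31 and -0.47. Without control mouse 1 these medians were -0.34, -0.26 and -0.28. Of the interneuron markers 4 of 5 were lower, with a median of -0.38, or -0.02 without control mouse 1. The genes differed in this: Sst gave -1.47 (SE 0.26), or -1.51 without control mouse 1. It was dim, at 26.1, 28.1 and 7.33 on the transgenic arrays and 56.0, 62.0 and 57.5 on the control arrays. Gad1, the 1 higher, gave 0.11 (SE 0.16), with every transgenic array above every control array. Cldn5, an endothelial tight junction gene and the 1 vascular marker of 4 that passed, read 42.5, 45.2 and 54.8 on the transgenic arrays and 140.1, 88.3 and 62.4 on the control arrays. All transgenic arrays lay below all control arrays, with a difference of -1.15 (SE 0.34), or -0.69 without control mouse 1. In each of these lists the mean level was highest on control mouse 1 and lowest on transgenic mouse 1. Relative to the mean of the 6 arrays, oligodendrocyte markers stood there at 0.77 log2 units, against -0.65, 0.02 and -0.12 on the transgenic arrays and 0.15 and -0.18 on the other control arrays. Astrocyte markers stood at 0.50 on it, interneuron markers at 0.50 and microglia markers at 0.31.

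Pan-neuronal markers did not set that array apart in the same way. They stood at 0.16, -0.04 and -0.09 on the transgenic arrays and 0.09, -0.05 and -0.08 on the control arrays, with the highest value on transgenic mouse 1. Granule cell markers stood at -0.07, -0.05 and -0.04 on the transgenic arrays and 0.06, 0.05 and 0.05 on the control arrays. Of these 6 markers 2 were higher and 4 lower, with a median difference of -0.14, or -0.09 without control mouse 1. Of 4 pyramidal cell markers 3 passed, 1 higher and 2 lower, with a median of -0.23, or 0.08 without control mouse 1. Fibcd1 gave 1.02 (SE 0.48), Neurod6 -0.85 (SE 0.39) and Wfs1 -0.23 (SE 0.34). Mog, C1qa, Aif1, Aldh1l1, Pecam1, Flt1, Tek and Spink8 did not pass the filter. The part of other cells in the Elavl2 and Elavl4 values was not tested.

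**Figure D2:**
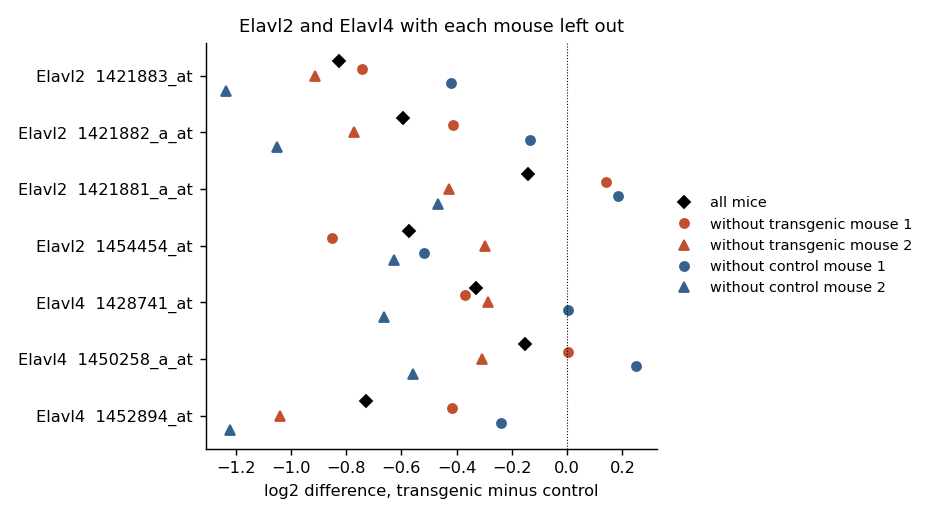
The log2 difference, transgenic minus control (horizontal axis), of each Elavl2 and Elavl4 probe set with all mice (black diamond) and with 1 mouse left out (orange: a transgenic mouse; blue: a control mouse). Leaving out control mouse 1 (blue circle) brings the 3 Elavl4 differences to 0.0037, 0.25 and -0.24 and that of the brightest Elavl2 probe set to -0.42.

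Elavl1, which encodes HuR, had 6 probe sets, of which 4 passed and pointed in different directions. The brightest, 1452858_at, read 279 on transgenic mouse 1 and 372 and 228 on transgenic mouse 2, against 311 on control mouse 1 and 266 and 191 on control mouse 2. The groups overlapped, and the difference was 0.11 (SE 0.22). For 1428653_x_at and 1431037_a_at it was 0.23 (SE 0.19) and 0.33 (SE 0.30); the second of these rests on 1 array of transgenic mouse 2 at 202, since the other 5 arrays lay between 92.3 and 126.

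The dimmest Elavl1 probe set that passed, 1448151_at, went the other way. It read 55.1 on transgenic mouse 1 and 67.6 and 55.6 on transgenic mouse 2, against 72.2 on control mouse 1 and 71.8 and 90.9 on control mouse 2. All 3 transgenic arrays lay below all 3 control arrays, and the difference was -0.39 (SE 0.18, 95% interval -0.85 to 0.065, limma adjusted p = 0.993). It was -0.24 among tagged and -0.54 among untagged arrays. Pearson's r of 1448151_at with the brightest probe set over the 6 arrays was -0.31. The probe sets 1440464_at and 1445521_at did not pass the filter, with readings of at most 34.6.

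Elavl3, which encodes HuC, likewise had probe sets that disagreed. The brightest, 1435871_at, read 461 on transgenic mouse 1 and 498 and 413 on transgenic mouse 2, against 480 on control mouse 1 and 660 and 456 on control mouse 2. One control array stood above the others, and the difference was -0.16 (SE 0.17, 95% interval -0.61 to 0.28). The second, 1455484_at, ran against it across the 6 arrays (r = -0.80) and differed by 0.19 (SE 0.20). The third, 1452524_a_at, differed by 0.11 (SE 0.25), and with control mouse 2 left out by -0.19. None of the 3 passed the test.

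Khsrp encodes KSRP, which recruits the decay machinery to AREs and competes with HuD in neurons. Its 3 probe sets had lower transgenic means, with overlap in each. The brightest, 1436813_x_at, read 1047 on transgenic mouse 1 and 838 and 793 on transgenic mouse 2, against 1227 on control mouse 1 and 1300.5 and 798 on control mouse 2. One control array lay among the transgenic ones, and the difference was -0.28 (SE 0.22, 95% interval -0.84 to 0.29). The differences of 1428174_x_at and 1452690_at were -0.51 (SE 0.44) and -0.17 (SE 0.20). Probes of 1436813_x_at and 1428174_x_at can match other transcripts as well, by their suffix. The probe set without that suffix, 1452690_at, was dim, and its difference ran from -0.33 to -0.01 over the leave-outs. Without transgenic mouse 2 the 1428174_x_at difference was -0.05, and its lowest array, at 28.7, belonged to that mouse.

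Hnrnpd, the gene of AUF1, had 3 probe sets, all with overlapping groups. Its first probe set, 1425142_a_at, read 735 on transgenic mouse 1 and 915 and 733 on transgenic mouse 2, against 973 on control mouse 1 and 879 and 803 on control mouse 2. Transgenic and control arrays interleaved, with a difference of -0.22 (SE 0.18). The other two probe sets gave 0.13 (SE 0.17, interval -0.32 to 0.57) for 1457568_at and -0.09 (SE 0.16, interval -0.52 to 0.33) for 1458273_at. As ratios the 3 intervals together span 0.62 to 1.49.

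Zfp36 encodes tristetraprolin, which brings deadenylases to ARE mRNAs and is itself an immediate early gene. Its single probe set, 1452519_a_at, read 31.9 on transgenic mouse 1 and 7.89 and 23.2 on transgenic mouse 2, against 14.9 on control mouse 1 and 10.7 and 24.7 on control mouse 2. One transgenic array lay under the floor, the groups overlapped, and the 2 arrays of mouse 2 differed by 1.20 log2 units, after the floor, in the transgenic and by 1.21 in the control mouse. It did not pass the filter. In the fit of all probe sets its difference was 0.51 (SE 0.46, 95% interval -1.05 to 2.07, limma adjusted p = 0.882).

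Tia1 and Tial1 encode the translational silencers TIA-1 and TIAR, which also gather mRNAs into stress granules. Of the 6 Tia1 probe sets 5 passed, 3 with a higher and 2 with a lower transgenic mean, between -0.17 and 0.25. The highest of these differences was that of 1416814_at, which read 991 on transgenic mouse 1 and 955 and 1070 on transgenic mouse 2, against 814 on control mouse 1 and 724 and 1044 on control mouse 2. One control array lay among the transgenic ones, and the difference was 0.25 (SE 0.16, 95% interval -0.18 to 0.68). The probe set 1416812_at, of nearly the same mean level, differed by 0.06 (SE 0.17). The sixth, 1453803_at, was under the floor on 4 of 6 arrays and read up to 53.6 on the rest.

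Tial1 had the 1 member probe set on which all transgenic arrays exceeded all control arrays. This was 1452821_at, which read 737 on transgenic mouse 1 and 677 and 683 on transgenic mouse 2, against 655 on control mouse 1 and 558 and 579 on control mouse 2. The gap between the groups, from 655 to 677, was small. The difference was 0.21 (SE 0.18, 95% interval -0.25 to 0.68, limma adjusted p = 0.993), with 0.11 among tagged and 0.26 among untagged arrays, and it ran from 0.11 to 0.32 over the leave-outs.

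The other Tial1 probe sets did not share that pattern. Their differences were 0.07 for 1455675_a_at, -0.48 (SE 0.31) for 1455676_x_at, -0.12 for 1421148_a_at and -0.23 for 1426352_s_at, all with overlapping groups. Over the 6 arrays 1452821_at had r between -0.53 and 0.01 with these 4, whereas 1455675_a_at and 1421148_a_at moved together (r = 0.94). On 1455676_x_at the 2 arrays of transgenic mouse 2 read 186 and 422, a gap of 1.18 log2 units. Probe sets with the suffixes _x_at and _s_at hold probes that can match other transcripts as well.

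Pabpc1, the cytoplasmic poly(A)-binding protein gene, read within a narrow range on its main probe set. This probe set, 1418883_a_at, read 2740.0 on transgenic mouse 1 and 2786 and 2918 on transgenic mouse 2, against 3162 on control mouse 1 and 3035 and 3085 on control mouse 2. All transgenic arrays lay below all control arrays, with mean log2 levels of 11.45 ± 0.04 in transgenic and 11.60 ± 0.03 in control mice (SD, n = 2). The difference of -0.15 (SE 0.16) corresponds to a ratio of 0.90 and did not pass (95% interval -0.58 to 0.27, limma adjusted p = 0.993). It kept its sign in every leave-out, from -0.18 to -0.13. It was -0.19 among tagged and -0.07 among untagged arrays. The second probe set, 1453840_at, was dim, overlapped between groups and differed by -0.26 (SE 0.45).

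**Figure D3:**
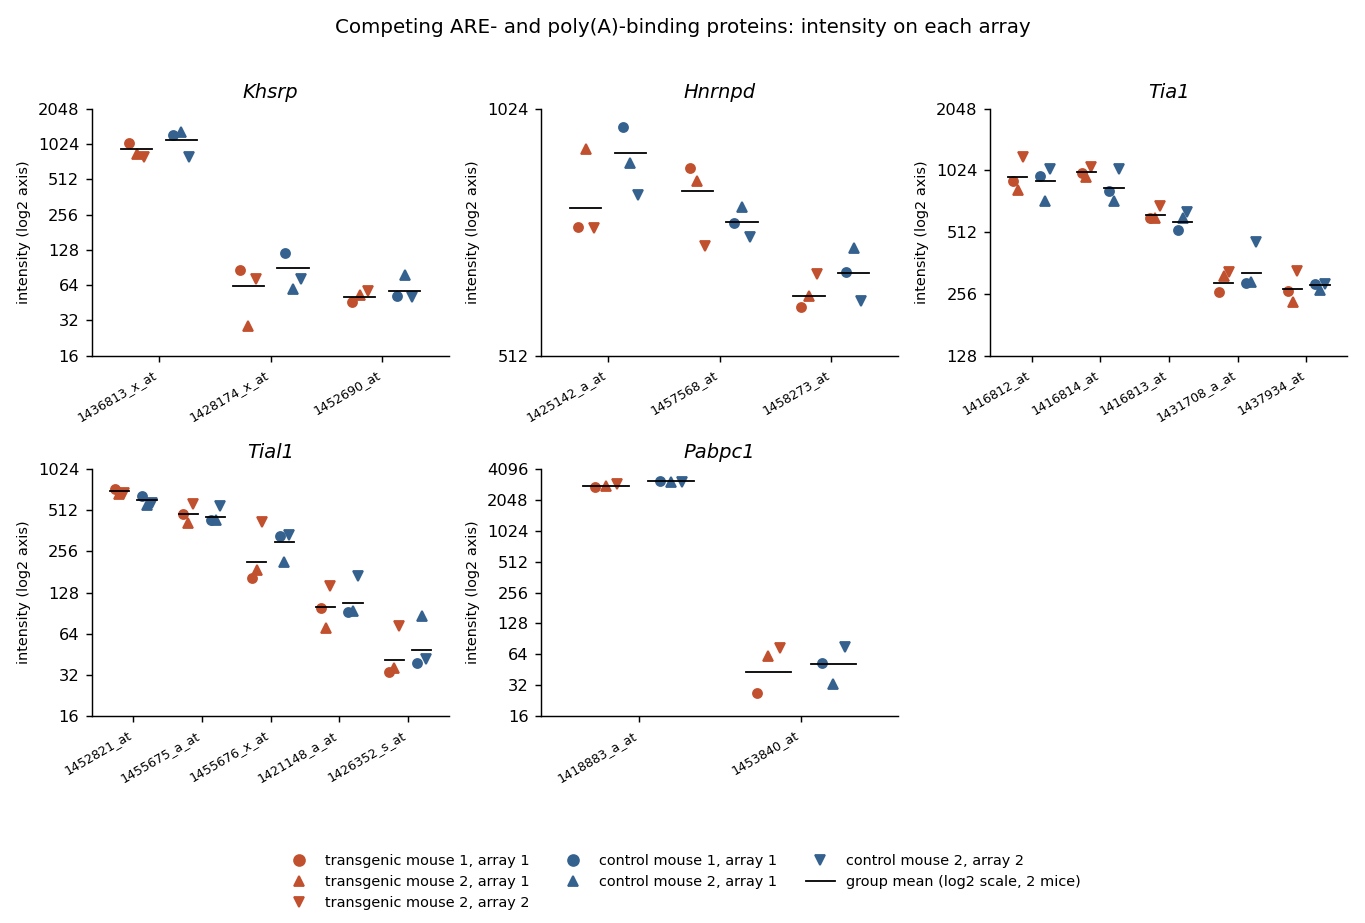
Intensities of the 18 probe sets of the competing proteins that passed the filter (log2 axis with a range of its own in each panel), with transgenic arrays in orange on the left and control arrays in blue on the right of each probe set; black lines are group means of 2 mice on the log2 scale. The groups are separate for Pabpc1 1418883_a_at and Tial1 1452821_at and overlap for the rest.

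The interval widths show what the 4 mice can resolve for these genes. Over the 32 member probe sets the median 95% interval reached 0.56 log2 units to either side of the difference, against 0.54 for all probe sets tested. The median absolute difference between the groups was 0.20 for members and 0.16 for all. The 2 arrays of transgenic mouse 2 differed by a median of 0.32 for members and 0.31 for all, and those of control mouse 2 by 0.47 for members and 0.30 for all. No member probe set of the 32 differed by more than 1 log2 unit, and 336 of all 22518 probe sets did. At so small a share in all probe sets, the absence among 32 is no trait of the members.

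**Figure D4:**
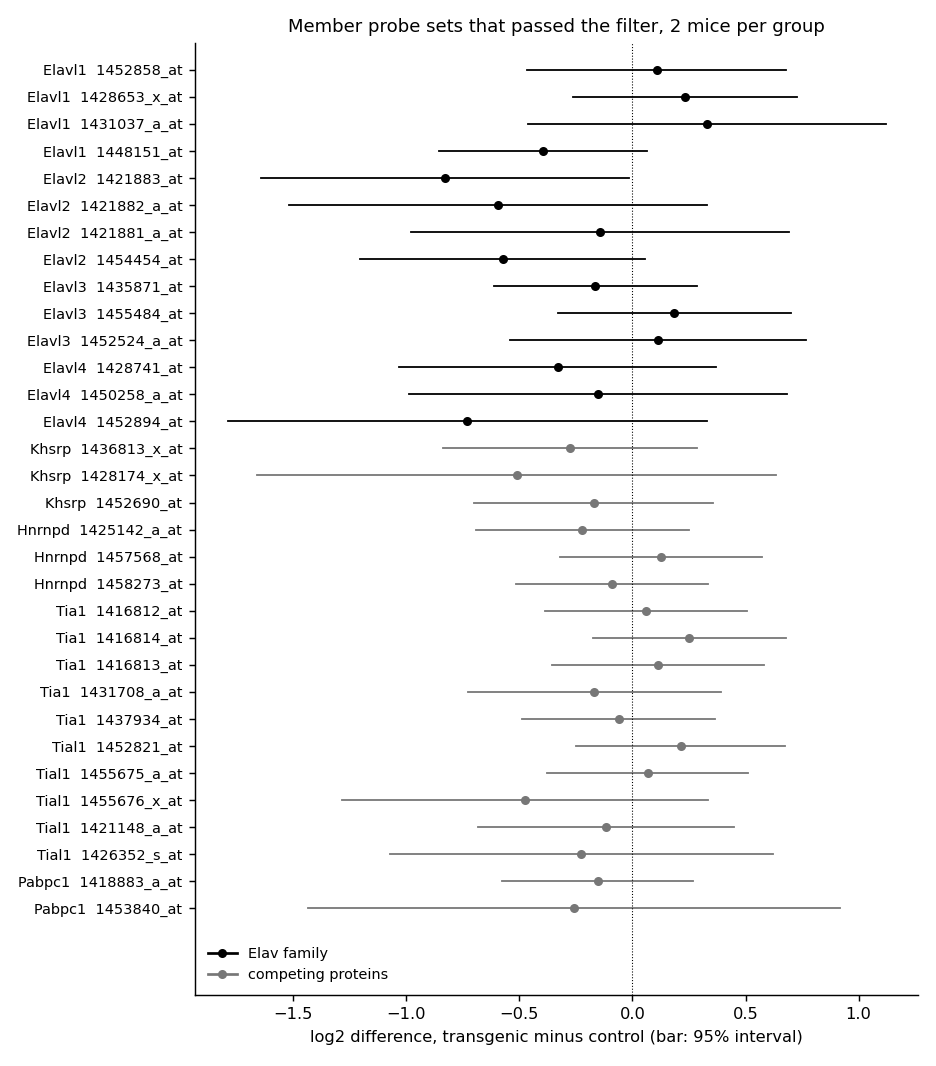
The log2 difference, transgenic minus control (horizontal axis), of each of the 32 member probe sets that passed the filter, with its 95% interval from limma on 2 mice per group (black: Elav family; grey: competing proteins). All intervals include 0 but that of Elavl2 1421883_at, which ends at -0.015 and whose adjusted p was 0.993.

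The pattern of Elavl4 over the arrays was compared with that of other genes. Among 18610 named probe sets above the floor on every array, the genes most like the brightest Elavl4 probe set were Odr4 (r = 0.999), Rps19 (r = 0.997), Htra1, Rpl13a and Fbn2 (r = 0.99 each), over 6 arrays of 4 mice. Odr4 read 292, 364 and 191 on the transgenic arrays (mouse 1, then mouse 2) and 537, 355 and 218 on the control arrays. As for Elavl4, control mouse 1 was the highest array of each of these. That follows from their choice by r over the same arrays and is no separate result. With so few arrays, 150 of the probe sets had an r over 0.9. Among the brightest probe sets of the members, Elavl4 ran most closely with Elavl2 (r = 0.89) and Hnrnpd (r = 0.86), and Tia1 ran against it (r = -0.60).

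Related genes were followed in 6 lists, each gene by its brightest probe set. All named genes had 5791 higher and 5347 lower, with a median of 0.01, and 0 were called in any list. Of 10 paralogs of the competing proteins 8 passed, 4 higher and 4 lower (median 0.0015). Zfp36l1, a relative of tristetraprolin, had 118, 158 and 157 on the transgenic arrays and 266, 175 and 152 on the control arrays. Control mouse 1 was its highest array, and its difference was -0.62 (SE 0.31), or -0.26 without that mouse. Zfp36l2 gave -0.47 (SE 0.46), with a range of -0.97 to 0.03 over the leave-outs in which it turned without control mouse 1, while Fubp3 and Fubp1, relatives of KSRP, gave 0.22 (SE 0.16) and 0.13 (SE 0.18).

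Of 14 other ARE-binding proteins 13 passed, 7 higher and 6 lower (median 0.05). Hnrnpc, a nuclear RNA-binding protein, read 5039, 4655 and 4970 on the transgenic arrays and 5660, 5873 and 5408 on the control arrays. All transgenic arrays lay below all control arrays, with a difference of -0.20 (SE 0.16). Ncl, the gene of nucleolin, gave -0.21 (SE 0.22). Syncrip, found in neuronal RNA granules, gave 0.23 (SE 0.16). Hnrnpl, a splicing regulator, read 50.7, 36.4 and 67.6 on the transgenic arrays and 6.93, 63.9 and 48.4 on the control arrays. Control mouse 1 lay under the floor there and the groups overlapped, so that its difference of 1.08 (SE 0.81) ran from -0.15 to 2.32 over the leave-outs.

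Of 10 genes that link the poly(A) tail and the cap to translation 9 passed, 6 higher and 3 lower (median 0.03). Paip1, a partner of PABPC1 that favours translation, gave 0.17 (SE 0.23) and Eif4e, the cap-binding protein, 0.11 (SE 0.17). Eif4b and Eif4a1, a helicase that HuD can bind, gave -0.07 (SE 0.17) and -0.03 (SE 0.17).

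The 6 HuR ligands and export factors all passed, 5 higher and 1 lower (median 0.08). The import receptor genes Tnpo2 and Tnpo1 gave 0.75 (SE 0.26) and 0.28 (SE 0.17), and the phosphatase inhibitor gene Set gave -0.03 (SE 0.17). For Tnpo2 the transgenic arrays read 55.4, 30.6 and 58.7 and the control arrays 34.4, 4.74 and 57.5. One control array lay under the floor and the groups overlapped, so that the difference ran from 0.12 to 1.38 over the leave-outs.

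Of 10 stress granule partners 9 passed, 3 higher and 6 lower (median -0.07). G3bp1, which nucleates the granules, and Ubap2l gave -0.26 (SE 0.20) and -0.22 (SE 0.17), whereas Fmr1 and G3bp2 gave 0.06 (SE 0.18) and 0.01 (SE 0.21). Of 10 immediate early genes, the class to which Zfp36 belongs, 8 passed, 3 higher and 5 lower (median -0.06). Ier2 gave -1.15 (SE 0.32) and Egr1 -0.28 (SE 0.19), while Dusp1 gave 0.49 (SE 0.36) and Btg2 0.20 (SE 0.17). Ier2 was at -0.71 without transgenic mouse 1, and Dusp1 ran from -0.11 to 1.09 over the leave-outs. The median of the list was 0.10 without control mouse 1 and -0.34 without transgenic mouse 1. For Btg2 all transgenic arrays, at 179 to 198, lay above all control arrays, at 148 to 170.2.

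The directions of Paip1, Eif4b, Eif4a1, Set, Fmr1 and G3bp2 also turned in at least 1 leave-out. List medians turned as well: without control mouse 1 that of the other ARE-binding proteins was -0.05, and that of the poly(A) and cap genes -0.0015.

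**Figure D5:**
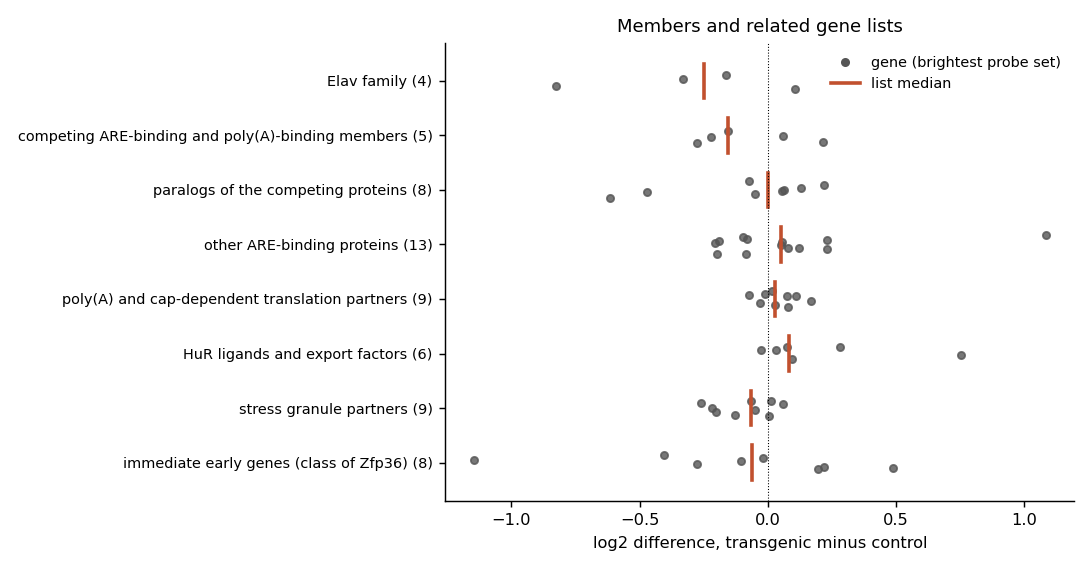
The log2 difference, transgenic minus control (horizontal axis), of each gene of the members' 2 groups and of the 6 related lists (points, the brightest probe set of each gene that passed the filter, number in brackets), with the median of each list (orange line). The medians lie between -0.25 for the Elav family and 0.08 for the HuR ligands and export factors, and no gene was called.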

How the data were processed

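The values are linear probe set intensities that the authors deposited, with every array scaled to a 2% trimmed mean of 150 over 45101 probe sets, as the values show. Which program summarised the probes, and with what background correction, is not given in the sources used here. With 4 mice, precision depends on their number.

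Left out were 64 control probe sets. Genes were named from the platform annotation, checked through Entrez identifiers against a RefSeq table (0 symbols changed). Values under the pooled 25th percentile (10.1) were raised to it, and log2 was taken. This touched 23.9% to 26.4% of values per array. Arrays of a mouse were averaged, and limma 3.58.1 in R 4.3.3 fitted the group difference (lmFit, eBayes, 2 residual and 2.83 prior degrees of freedom). Benjamini-Hochberg adjustment ran over 22518 probe sets, with a threshold of 0.05. Probe sets under the filter were fitted together with all 45037. The p-values, SEs and intervals rest on the spread of 2 mice per group, drawn toward a variance estimated from all probe sets in the fit. They therefore do not measure the spread of the mice for a probe set alone. The fit was tested on simulated data.

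Every member is named, as are the 2 genes of smallest p per direction from each list and the 5 genes most like Elavl4 across the arrays. Members and lists were chosen with earlier results of these data known. Alternatives changed normalization, floor, filter, probe sets per gene, replicate unit, block, tag, variance model, mice and arrays.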

Additional observations from a re-analysis of the deposited data

How the results depend on the processing

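The count of member probe sets past the threshold was 0 under each of 9 processing alternatives and 8 leave-outs. The leave-out of a mouse leaves 1 mouse in a group, assumed to vary like the other group's, and with a smallest adjusted p of 0.993 in the full design these counts of 0 say nothing about stability. Of all probe sets, 2 were called with a variance trend and robust variances, neither of them a member (Edil3 and E2f5, named after their values were seen), and 0 under the other alternatives. With no filter, 2923 of 45037 probe sets had an unadjusted p under 0.05. Of 265 member differences recomputed under processing alternatives, 259 kept their direction. Part of these could not turn. No filter, 1 probe set per gene, the replicate block and the variance trend leave each difference unchanged by construction. With the 6 arrays as separate samples Elavl2 1421881_a_at turned to 0.061 and Elavl4 1450258_a_at to 0.033. With the tag as a term, also on the 6 arrays as separate samples, Tia1 1437934_at turned to 0.021, Tial1 1421148_a_at to 0.015, Tial1 1426352_s_at to 0.056 and Pabpc1 1453840_at to 0.10. The cause was not tested. The mouse number as a replicate block gave 0 calls and 1085 unadjusted p under 0.05, against 995 without it. In this balanced layout the block cannot change the differences (Elavl4 1428741_at at -0.33). Deviations of same-numbered mice correlated at 0.02, so the number is taken as a name only.

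Leaving out a mouse or an array turned the direction of 14 of 32 member probe sets at least once. For Elavl1 the ranges were -0.13 to 0.34 (1452858_at) and -0.066 to 0.72 (1431037_a_at). For Elavl2 1421881_a_at the range was -0.47 to 0.18, and for Elavl3 1452524_a_at -0.19 to 0.42. For Elavl4 it was -0.66 to 0.0037 (1428741_at) and -0.56 to 0.25 (1450258_a_at). For Tia1 it was -0.074 to 0.19 (1416812_at), -0.0035 to 0.23 (1416813_at), -0.34 to 0.0061 (1431708_a_at) and -0.18 to 0.063 (1437934_at). For Tial1 it was -0.049 to 0.18 (1455675_a_at), -0.37 to 0.14 (1421148_a_at) and -0.54 to 0.088 (1426352_s_at). For Pabpc1 1453840_at it was -0.92 to 0.40. The median member difference of -0.15 was more than 1.5 times smaller without control mouse 1 (-0.08), transgenic mouse 1 (-0.02), control mouse 2 array 1 (-0.08) or control mouse 2 array 2 (-0.09). The same held with the tag as a term, fitted on the 6 arrays as separate samples (-0.07). Signal over background limits Zfp36, the 1 member gene with no probe set past the filter.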
